A study of Arabidopsis thaliana with 5 samples.

Results

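The natural accessions WS and Col-0 of the plant Arabidopsis thaliana were compared over all 5 arrays of a study on calcium/calmodulin-binding transcription factors. The members were chosen by the accession in the sample labels alone, which put 2 arrays in WS and 3 in Col-0, and these are all 5 arrays of the series. The WS arrays came from plants with no line named and from the line CAMTA.1, for which the labels give no genetic modification. The Col-0 arrays came from plants with no line named and from the T-DNA insertion lines CAMTA.1.2 and CAMTA.6.2, both made in Col with the vector pROK2, the second labelled as still segregating. All plants were whole plants at growth stage 1.04, grown at 18 degrees and 65% humidity with 16 h of light and 8 h of dark. The sources used here do not say how many plants went into an array.

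An accession is an inbred line that descends from plants collected in the wild. Accessions differ from each other at many positions of the genome, including genes that are missing, duplicated or silent in 1 of them. The array reads transcripts through short probes grouped into probe sets. A transcript that matches the probes poorly and a transcript that is scarce both give a low signal, and in values summarised by probe set these cannot be told apart. In whole plants, fewer cells of a type and less RNA per cell cannot be told apart either.

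The source names do not follow these labels, since the CAMTA.6.2 array has WSC in its source name, the WS array EX1 and the Col-0 array KO1. Some results are therefore also given without the CAMTA.6.2 array. An intensity of 18.1 was taken as the floor, and each array had 59.3% to 60.7% of its probe sets above it. In what follows, a pair of WS values gives the array with no line named and then CAMTA.1, and 3 Col-0 values give the array with no line named, then CAMTA.1.2, then CAMTA.6.2. Average background was 92.6 and 64.9 in WS, against 60.7 to 75.6 on the 3 Col-0 arrays. The 3'/5' signal ratio of the GAPDH control, a measure of RNA integrity, was 1.38 and 1.29 in WS, against 1.64, 1.94 and 1.78 in Col-0, so the groups did not overlap. That of ubiquitin was 2.28 and 3.32 in WS, against 2.64, 2.68 and 3.57 in Col-0, with overlap. The part of RNA integrity in the results below was not tested. The CAMTA genes themselves could hardly be checked. AT1G67310 (CAMTA4) lay under the floor on all 5 arrays and AT4G16150 (CAMTA5) ranged from 15.5 to 21.7. The remaining members of the family were not analysed here.

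The first question was which transcripts separate the accessions on every array. The cell wall gene ECS1, 2 genes of mitochondrial complex I and the drought-induced genes DI19 and DI21 were lower in WS. A lectin gene, a cathepsin B-like protease gene, a 2-oxoglutarate dehydrogenase gene and a root peroxidase gene were higher. For 65 of the 5271 probe sets tested (1.23%), every WS value lay at least 2-fold from every Col-0 value. Of these, 15 were higher in WS (0.285%) and 50 lower (0.949%). The distance between the closest WS and Col-0 arrays is called the gap here. The limma test across all probe sets called 38 (0.721%), 10 of them higher in WS (0.19%) and 28 lower (0.531%), and all 38 had a gap of at least 2-fold. At an unadjusted p under 0.05 there were 382 (7.25%). A single value set 2 arrays against 3, which allow 10 splits, so that an exact one-sided permutation test could not go below 0.1.

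The number of calls changed with the arrays. Without the CAMTA.6.2 array limma called 38 again, 29 of them also called with it, and 115 probe sets had a gap of 2-fold or more. Of the 18 named genes called, 12 passed without that array. The complex I gene AT2G31490, the peroxidase gene AT4G11290, AT1G76960, AT2G14880, ARAB-1 and ChiC missed the test, with limma adjusted p between 0.0501 and 0.0974. Another 4, AT1G52050, AT1G65190, AT3G24612 and AT1G23130, passed only without that array among the fits that left out 1 array, with adjusted p between 0.0246 and 0.0493. Leaving out the WS array left 5 calls, the CAMTA.1 array 3, the Col-0 array 3 and the CAMTA.1.2 array 6, in fits with 1 sample fewer. AT2G33220 passed in 3 of these 5 fits, and ECS1 and AT5G44286 in 2. With a term for arrays of a named line, 9 of the 18 named genes passed. DI21, AT2G31490, AT4G11290, AT2G14880, AT2G21860, AT4G02540, AT4G31530, ARAB-1 and ChiC did not, with adjusted p between 0.0525 and 0.111. None of the 18 passed without the filter on low signals, where adjusted p ranged from 0.0725 to 0.294.

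The direction of the separation changed with its size. Groups did not overlap for 1154 probe sets (21.9%). Of these, 665 were higher in WS (12.6%) and 489 lower (9.28%), which is 57.6% higher. With 10 possible splits of 2 and 3 arrays, exchangeable arrays would give a share of about 0.1 in each direction. The shares without a minimum gap are near that, so they do not by themselves show a difference between accessions. With the values as deposited, without further scaling, 66.8% of them were higher, and 58.8% with quantile normalization. At a gap of 1.5-fold, 38 were higher and 99 lower. At 4-fold there were 5 higher and 15 lower, and at 8-fold 1 higher and 8 lower. The median log2 difference over all probe sets tested was 0.03, and 90% of them lay between -0.71 and 0.58.

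**Figure D1:**
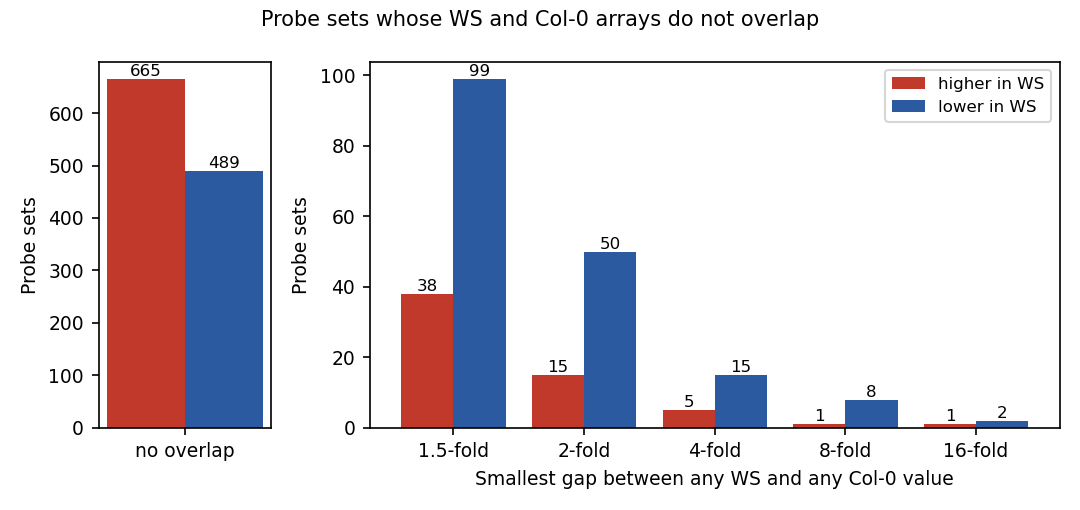
Number of probe sets (vertical axes, from 0) whose 2 WS and 3 Col-0 arrays did not overlap (left panel) or were separated by at least the fold on the horizontal axis (right panel), higher in WS in red and lower in WS in blue. The red bar is the taller one without a minimum gap, at 665 against 489, and the blue bar from 1.5-fold on, at 99 against 38.

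The widest separation of a named gene was that of ECS1 (AT1G31580), which encodes a small cell wall protein. Its intensity was 97.3 and 39.1 in WS, against 6834, 4874 and 3534 in Col-0. ECS1 was 79.4-fold lower in WS, with a log2 difference of -6.31 (SE 0.47) and a limma adjusted p of 0.00915, and even the nearest arrays stood 36.3-fold apart. The CAMTA.6.2 array lay with the other Col-0 arrays here, which the ranking by gap required, so this is no check of its label.

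A pair of genes of mitochondrial complex I, the enzyme that passes electrons from NADH into the respiratory chain, were called lower in WS, and no other tested gene of the complex was called. AT2G33220, whose product is the plant counterpart of the GRIM-19 subunit, was at 25.2 and under the floor at 3.8 in WS, against 275.6, 287.6 and 315.0 in Col-0. The 3 Col-0 values were close together and far above both WS values. The log2 difference was -3.77 (SE 0.23), with a limma adjusted p of 0.00394 and 1 of the 2 WS arrays above the floor. Its size depended on the floor. The log2 difference was -4.27 with the floor halved (limma adjusted p = 0.0233) and -3.01 with the floor doubled (0.00417). AT2G31490 was at 69.0 and 102.7 in WS and at 356.4, 341.5 and 434.0 in Col-0, and fell by 2.16 on the log2 scale (SE 0.26, adjusted p = 0.0277). With a term for a named line its adjusted p was 0.0525. Of 25 complex I loci in the list, 9 were tested. The list was chosen with earlier results of these data known, so its share of calls does not test it. AT2G33220 and AT2G31490 were called lower, where 0.531% of all probe sets were, none was called higher, and the median was 0.03. The other 7 had log2 differences between -0.22 and 0.30. AT1G79010 and AT5G11770, which encode iron-sulphur subunits, and AT2G20360 were among them.

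Drought-induced genes were the second group with called members. DI19 (AT1G56280), a zinc finger protein gene induced by drought, was at 418.3 and 313.8 in WS, against 1576, 1724 and 1379 in Col-0. It was 4.29-fold lower in WS (log2 difference -2.10, SE 0.23, adjusted p = 0.0233). DI21 (AT4G15910), a late embryogenesis abundant protein gene, was at 69.0 and 86.0 in WS and at 400.3, 328.4 and 511.1 in Col-0, 5.28-fold lower (adjusted p = 0.0233, or 0.0525 with a term for a named line). Both groups were far apart for both genes. A second probe set of DI21 gave 23.4 and 30.7 in WS, against 96.9, 62.7 and 145.0 in Col-0, the same order with an adjusted p of 0.205.

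Of 14 cold, drought and ABA loci, 8 were tested. The list was chosen with earlier results of these data known, so the shares below do not test it. DI19 and DI21 were called lower, where 0.531% of all probe sets were, and none higher. The median log2 difference was -1.14, or -1 without the CAMTA.6.2 array, against 0.03 over all probe sets. In 5 of the 8 the groups did not overlap, all 5 lower in WS, where 9.28% of all probe sets did so. The dehydrin gene LTI30 was at 30.0 and 46.9 in WS, against 101.2, 78.8 and 196.2 in Col-0 (adjusted p = 0.37). KIN2, a cold-induced gene, was at 321.2 and 465.7 in WS, against 762.0, 540.8 and 1455 in Col-0 (adjusted p = 0.678). COR15B, which protects chloroplasts in the cold, was at 63.8 and 59.1 in WS, against 90.7, 71.2 and 390.8 in Col-0 (adjusted p = 0.853). For these 3 genes the groups did not overlap, the CAMTA.6.2 array was the highest, and none passed the test. STZ, a repressor of stress responses, was at 360.2 and 68.8 in WS, against 423.2, 587.0 and 128.5 in Col-0, with overlap (adjusted p = 0.93). COR47 and HIS1-3 differed by 0.12 and -0.09.

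**Figure D2:**
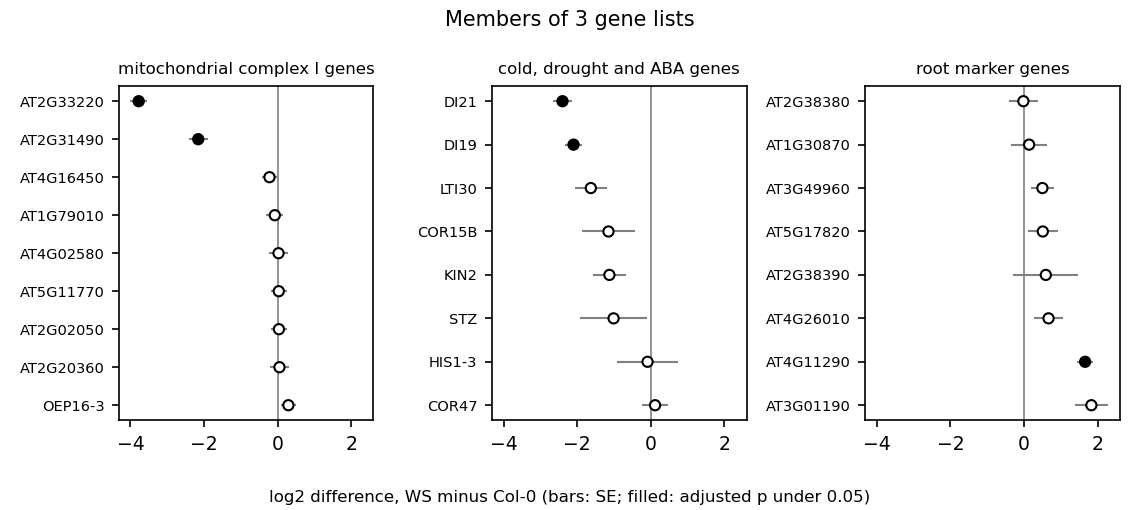
log2 difference, WS minus Col-0 (horizontal axis), with its SE as a bar, for the tested members of the lists of mitochondrial complex I, cold, drought and ABA, and root marker genes. Filled points had an adjusted p under 0.05 by limma. The 2 called complex I genes and 2 drought-induced genes stand to the left and the peroxidase gene AT4G11290 to the right.

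Further genes with wide gaps had WS values near the floor. AT2G21860, related to violaxanthin de-epoxidase, was at 19.0 and under the floor in WS, against 73.5, 93.6 and 67.2 in Col-0 (log2 difference -2.06, adjusted p = 0.0233). AT4G31530, of the NAD(P)-binding Rossmann-fold family, was at 24.2 and 20.6 in WS, against 77.7, 98.8 and 93.8 in Col-0 (4.01-fold lower, adjusted p = 0.0233). So close to the floor, the size of both differences is uncertain. With the floor doubled neither was called (limma adjusted p = 0.155 for AT2G21860 and 0.0665 for AT4G31530). AT4G02530, which encodes a protein of the thylakoid lumen, was at 29.6 and 50.7 in WS, against 123.2, 149.2 and 115.7 in Col-0, a gap of 2.28-fold that did not pass the test (adjusted p = 0.105).

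AT4G02540, which encodes a cysteine/histidine-rich C1 domain protein, lies next to AT4G02530 in the genome. It was under the floor on both WS arrays, against 122.2, 112.7 and 227.3 in Col-0. It was at least 8.08-fold lower in WS (adjusted p = 0.0274). With the floor doubled its log2 difference was -2.01 and it was not called (limma adjusted p = 0.107). A like pair was 2A6 (AT1G03410), a 2-oxoglutarate-dependent oxygenase gene, and its neighbour and relative AT1G03400. 2A6 was at 37.1 and 31.1 in WS, against 91.0, 113.6 and 166.2 in Col-0 (adjusted p = 0.0996). AT1G03400 was under the floor on both WS arrays and at 42.2, 29.3 and 60.8 in Col-0 (adjusted p = 0.37). Neither gene of this pair passed the test. In all, 16 pairs of a named gene and a tested protein-coding neighbour, at most 2 genes away, could be compared. Of all probe sets tested, 12.6% did not overlap and were higher in WS, and 9.28% did not overlap and were lower. The neighbour did not overlap between the groups in the direction of the named gene in 5 pairs and in the opposite direction in 3. The 5 count AT4G02530 and AT4G02540, both named for their gap, once from each side. Beside the pairs above, those in the same direction were SWEET17, the neighbour of DI21, at -0.64 (adjusted p = 0.883), and AT1G78880, near AT1G78860, at 0.22 (adjusted p = 0.923).

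AT5G44286, AT1G03746 and AT3G24612 are listed by RefSeq as genes of small nucleolar RNAs, which guide chemical modification of ribosomal RNA. Of the 8 tested genes so listed, these 3 had a gap of 2-fold or more, where 1.23% of all probe sets did. All 3 were read by probe sets ending in i_at or r_at, of which 7.14% did. The class was looked up after the values were seen. AT1G03746 and AT3G24612, under the floor on both WS arrays, were not called with all 5 arrays. AT5G44286 was at 37.6 and 32.8 in WS, against 470.4, 330.8 and 518.5 in Col-0, 12.3-fold lower in WS (log2 difference -3.62, SE 0.26, adjusted p = 0.00903). Its second probe set lay under the floor on all 5 arrays, so the difference stands on 1 of its 2 probe sets. AT1G76960 was at 35.6 and 34.5 in WS, against 451.4, 211.6 and 268.8 in Col-0, 8.41-fold lower (adjusted p = 0.0274). AT2G14880, which encodes a SWIB/MDM2 domain protein, was at 56.2 and 54.4 in WS, against 177.8, 253.7 and 220.5 in Col-0, 3.89-fold lower (adjusted p = 0.0274). In both genes the WS arrays were closer to each other than the Col-0 arrays were.

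CP5 (AT1G64720), a lipid-binding START domain protein gene, had a gap of 2.78-fold and just missed the test. It was at 254.7 and 432.1 in WS, against 1201, 1315 and 1430 in Col-0 (adjusted p = 0.0557). Its second probe set gave 285.6 and 568.5 in WS, against 839.5, 933.1 and 1102 in Col-0, in the same direction. Beyond the 12 widest, 10 named genes were lower in WS with a gap of 2-fold or more, AT4G02530 and 2A6 among them, and 2 of the 10 were called. They were ARAB-1, a GDSL lipase gene, and ChiC, a class V chitinase gene. ARAB-1 was at a log2 difference of -1.60 (limma adjusted p = 0.0413, or 0.0513 with the floor halved). ChiC was at least 2.59-fold lower (adjusted p = 0.0497). The call of ChiC depended on the floor, since with the floor doubled its log2 difference was -0.37 (adjusted p = 0.78), and with the floor halved its adjusted p was 0.056. It was also lost with a trend and robust estimation (adjusted p = 0.0773). Not called were the glucosyltransferase gene UGT85A2 at -1.88, AT1G23130, of a lipid-transport superfamily, at -2.02 (adjusted p = 0.0582, or 0.0493 without the CAMTA.6.2 array), and the histone H2B gene HTB2 at -1.34. For the protein kinase gene AT1G65190, AT1G03746 and AT3G24612 both WS arrays were under the floor, and none was called. Without the CAMTA.6.2 array AT1G65190 (adjusted p = 0.0264) and AT3G24612 (adjusted p = 0.0463) were. The chitinase-type neighbours of ChiC, AT4G19800 and AT4G19820, were under the floor on all arrays.

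**Figure D3:**
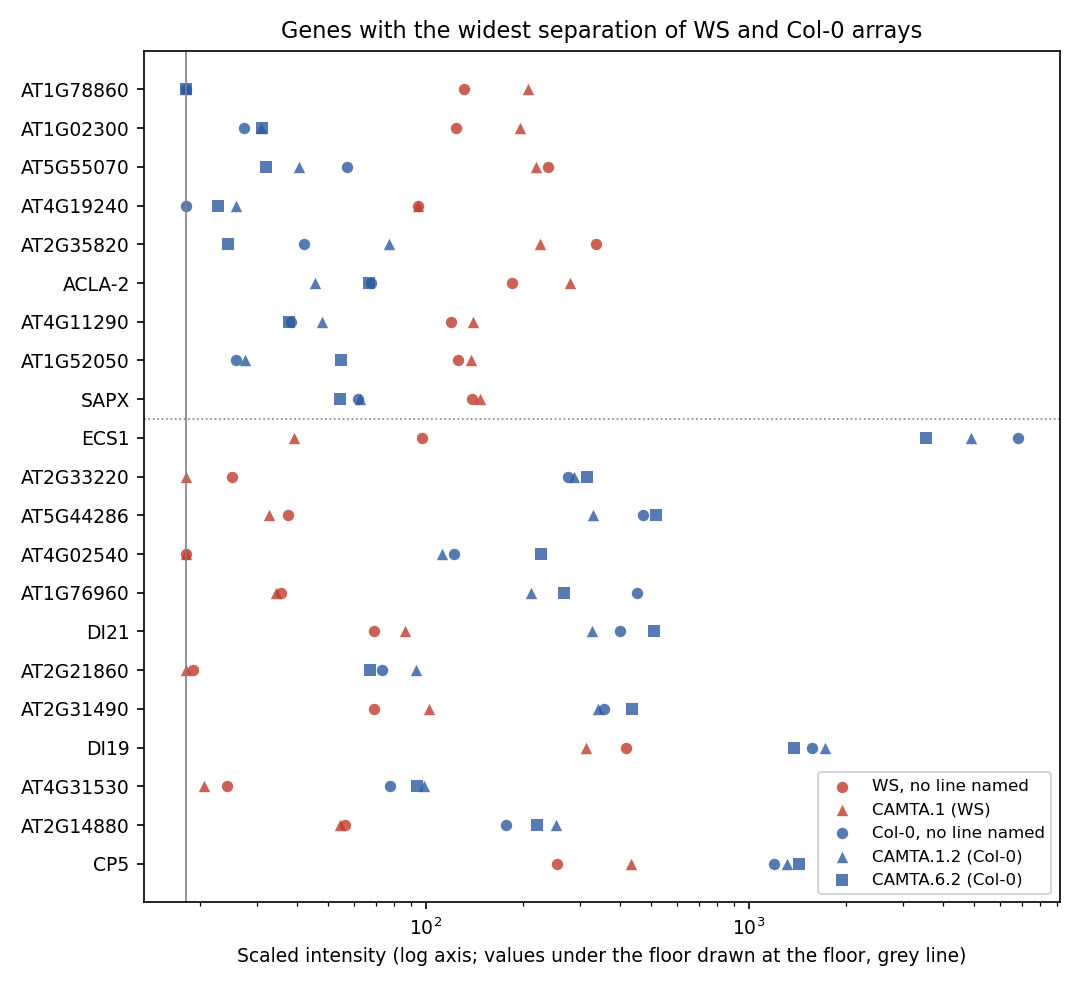
Scaled intensity on each array (horizontal log axis) for the 21 named genes with the widest gaps, WS arrays in red and Col-0 arrays in blue, with circles for arrays that name no line. The 9 genes above the dotted line were higher on both WS arrays and the 12 below it lower, ECS1 by the widest gap of 36.3-fold.

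In all, 9 named genes were higher in WS with a gap of 2-fold or more, and 5 of them passed the test. AT1G78860, which encodes a mannose-binding lectin-like protein, was at 131.6 and 207.0 in WS and under the floor in Col-0, at no more than 4.5. It was at least 9.12-fold higher in WS (adjusted p = 0.00959 by limma, or 0.0293 with the floor doubled). Raised to the floor, its Col-0 values were equal and added no spread to the test. The lectin gene AT1G78830 nearby had a log2 difference of 0.03, with 692.0 and 889.8 in WS, against 678.6, 483.7 and 1397 in Col-0.

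AT1G02300, a cathepsin B-like cysteine protease gene, was at 124.3 and 195.3 in WS, against 27.4, 31.0 and 31.2 in Col-0, 5.23-fold higher in WS (log2 difference 2.39, SE 0.26, adjusted p = 0.0233). AT4G01610, another cathepsin B-like gene, differed by 0.29 (adjusted p = 0.876). AT5G55070, which encodes an E2 subunit of the mitochondrial 2-oxoglutarate dehydrogenase complex, was at 239.6 and 219.6 in WS, against 57.2, 40.5 and 32.0 in Col-0, 5.46-fold higher (2.45, SE 0.29, adjusted p = 0.0277). The gene of the other E2 subunit, AT4G26910, differed by 0.76, with 95.7 and 85.3 in WS, against 71.4, 36.7 and 58.2 in Col-0 (adjusted p = 0.718). In both families the named relative did not pass the test, and the difference between relatives was not tested.

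AT4G19240 was at 94.9 and 94.6 in WS, against 17.7, 25.9 and 22.7 in Col-0, with 2 of the 3 Col-0 arrays above the floor (log2 difference 2.11, adjusted p = 0.0233). ACLA-2, a subunit gene of ATP-citrate lyase, which makes acetyl-CoA in the cytosol, was at 184.7 and 280.0 in WS, against 67.5, 45.3 and 66.6 in Col-0 (1.95, adjusted p = 0.0716). SAPX, the stromal ascorbate peroxidase gene, was at 139.0 and 147.3 in WS, against 61.8, 62.8 and 54.3 in Col-0 (1.27, adjusted p = 0.071). For ACLA-2 and SAPX the groups did not overlap, and neither gene passed the test. Their relatives ACLA-3 and TAPX, the thylakoid ascorbate peroxidase gene, differed by 0.30 and 0.08.

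AT2G35820 was at 337.5 and 226.1 in WS, against 42.1, 77.1 and 24.5 in Col-0 (log2 difference 2.68, adjusted p = 0.148). The jacalin lectin gene AT1G52050 was at 125.6 and 138.3 in WS, against 25.9, 27.5 and 54.5 in Col-0 (1.96, adjusted p = 0.148). Without the CAMTA.6.2 array its log2 difference was 2.30 and the adjusted p 0.0246. For its relative AT1G52070 nearby, at 124.3 and 108.0 in WS, the groups overlapped, since the CAMTA.6.2 array was the highest of all at 147.2.

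**Figure D4:**
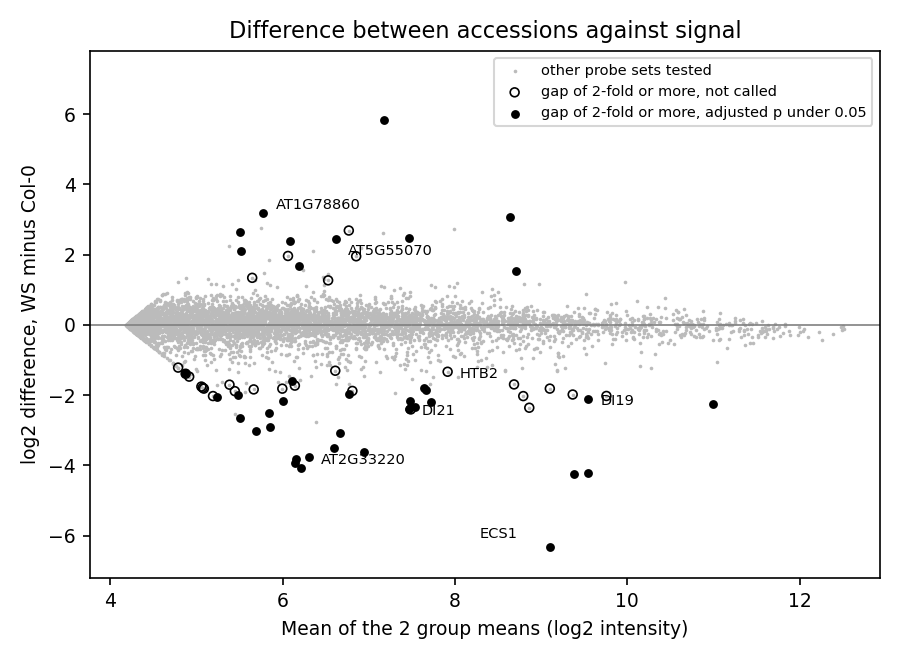
log2 difference, WS minus Col-0 (vertical axis), against the mean of both group means (horizontal axis, log2 intensity) for the 5271 probe sets tested. Black points are the 38 called by limma and open circles the other probe sets with a gap of 2-fold or more, most of them below 0.

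Peroxidase genes expressed mainly in roots were tested as root markers. AT4G11290 was at 119.8 and 140.4 in WS, against 38.2, 47.8 and 37.8 in Col-0, 3.16-fold higher in WS (log2 difference 1.66, SE 0.22, adjusted p = 0.0413, or 0.077 with a term for a named line). With the floor halved its limma adjusted p was 0.0513. AT3G01190 was at 103.4 and 113.6 in WS, against 18.8, 27.2 and 55.1 in Col-0, without overlap (adjusted p = 0.32). The root list too was chosen with earlier results of these data known, so its share of calls does not test it. Of 10 root marker loci 8 were tested, 1 was called higher, where 0.19% of all probe sets were, and none lower. The median was 0.55, or 0.947 without the CAMTA.6.2 array and 0.302 without the CAMTA.1.2 array. The summed intensity of all 8 was 1166 and 2232 in WS, against 1086, 1028 and 1824 in Col-0, so the groups overlapped. AT2G38390 was high on the CAMTA.1 and CAMTA.6.2 arrays, at 395.7 and 346.0, while the other 3 arrays did not exceed 94.2. RCA, the Rubisco activase gene and the only leaf marker that a probe set named alone, was at 3631 and 4168 in WS, against 5018, 5264 and 4532 in Col-0 (adjusted p = 0.846). The part of a different share of root or leaf in the whole plants was not tested. ATA20, a flower marker, was at 50.9 and 22.3 in WS, against 162.9, 67.9 and 20.2 in Col-0, with overlap.

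The salicylate defence list had 2 tested members, of which the cell wall gene ECS1 was called and the PR-1-like gene AT4G33720 was not. A part of ECS1 in defence was not tested. AT4G33720 was at 400.0 and 48.0 in WS, against 27.1, 0.4 and 13.2 in Col-0 (log2 difference 2.74, adjusted p = 0.485). Its second probe set gave 192.2 and 42.0 in WS, against 21.3, 3.9 and 6.8 in Col-0 (2.23, limma adjusted p = 0.378). The groups did not overlap on either probe set. The 2 WS arrays were further apart than the CAMTA.1 array and the highest Col-0 array. The jasmonate-responsive thionin gene THI2.1 overlapped, at 83.4 and 15.0 in WS, against 208.7, 2.1 and 12.7 in Col-0. The clock gene GI was at 121.8 and 160.6 in WS, against 110.4, 117.9 and 351.7 in Col-0 (adjusted p = 0.975). UGT74B1, of glucosinolate synthesis, differed by 0.29 (adjusted p = 0.93), and AOP1 and AOP3 were under the floor on all arrays. The lists of immune receptors, of flowering and photoreceptor genes and of seed markers had no probe set that named a member alone.

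Of all 8247 probe sets, 4383 named no gene. Probe sets of this kind made up 32 of the 65 with a gap of 2-fold, and 1 more named several. The widest gap of all was among them. Probe set 12761_s_at was at 945.5 and 1267 in WS, against 13.8, 17.9 and 21.5 in Col-0 (log2 difference 5.83, adjusted p = 0.00147 by limma). Probe set 17987_at was at 986.1 and 1341 in WS, against 115.3, 148.9 and 150.6 in Col-0. Lower in WS were 16135_at, at 162.5 and 183.5 in WS, against 3171, 3301 and 3139 in Col-0, and 18678_at, at 131.8 and 179.0 in WS, against 2778, 2788 and 3151 in Col-0. These were picked by the gap, so the CAMTA.6.2 array had to lie with Col-0 and the CAMTA.1 array with WS. Their values are therefore no check of the labels.

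Classes of probe sets were unevenly represented among the 65. Affymetrix marks probe sets that hold fewer probes or relaxed the selection rules with the endings i_at and r_at. Of the 182 such probe sets tested, 13 (7.14%) had a gap of 2-fold or more, 12 of them lower in WS. Of 3806 with the plain ending, 39 (1.02%) did, 28 of them lower. AT5G44286, AT1G65190, AT1G03746, AT3G24612 and AT1G78860 were read by such probe sets. On 12 of the 50 that were lower in WS both WS arrays were under the floor. On 2 of the 15 that were higher all 3 Col-0 arrays were. By the chromosomes of the RefSeq table, 14 of 466 named genes tested on chromosome 1 (3%) had such a gap, 5 of 789 on chromosome 2 (0.634%), 1 of 116 on chromosome 3 (0.862%), 8 of 661 on chromosome 4 (1.21%) and 3 of 103 on chromosome 5 (2.91%).

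Near the 2-fold limit, HTB2 was just inside, with a gap of 2.11-fold, and AT5G16990 and AT2G37120 just outside, at 1.97-fold and 1.98-fold. The second probe set of AT4G33720, higher in WS, was also just outside at 1.97-fold. AT5G16990 was at 135.7 and 143.9 in WS, against 66.2, 68.8 and 40.2 in Col-0.

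The counts for single pairs of arrays overlapped within and across accessions. Across accessions, 335 to 753 probe sets were 2-fold apart (6.36% to 14.3% of those tested), the fewest between WS and Col-0 with no line named. The WS and CAMTA.1 arrays had 503 such probe sets. Of the Col-0 pairs, Col-0 and CAMTA.1.2 had 155, Col-0 and CAMTA.6.2 620, and CAMTA.1.2 and CAMTA.6.2 652. The CAMTA.1 and CAMTA.6.2 arrays, of different accessions, had 386, fewer than the 2 WS arrays between them. The 65 probe sets above are those 2-fold apart in the same direction in all 6 pairs across accessions.

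**Figure D5:**
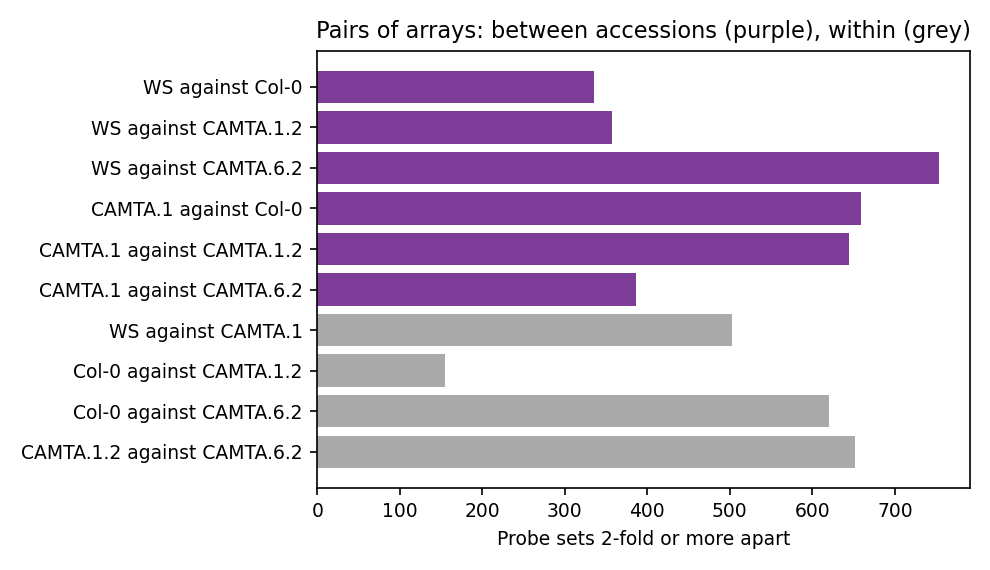
Number of probe sets at least 2-fold apart (horizontal axis, from 0) for each pair of the 5 arrays, with WS and Col-0 standing for the arrays that name no line, pairs across accessions in purple and within an accession in grey. Pairs within an accession reach 652 and those across accessions range from 335 to 753.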

How the data were processed

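RNA of whole Arabidopsis thaliana plants was hybridised to 5 one-colour Affymetrix arrays, per the labels. The deposited values were linear intensity values by probe set, which the authors had brought to a 2% trimmed mean of about 100 on every array, as the values show. No source used here names the method that summarised the probes. Accessions were taken from the characteristics. After 50 control probe sets were removed, 8247 remained. The floor was 18.1, the 40th percentile of their values. Arrays were scaled to a common median log2 value over the 4252 probe sets that exceeded the floor everywhere, and lower values were then raised to the floor. The intensities printed are the scaled ones before this last step. limma 3.58.1 (R 4.3.3) tested the 5271 probe sets above the floor on at least 2 arrays, with Benjamini-Hochberg adjustment over all of them at 0.05. The filter and the limma fit were also run on simulated log2 values, which did not test the scaling or the choice of floor.

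Probe sets were given genes by the platform annotation, with symbols from the RefSeq table of TAIR10.1, which also gave chromosomes, gene types and the order of protein-coding genes. A single gene was named by 3794 probe sets, several by 70 and none by 4383. Where a gene had several, the probe set with the highest mean signal was taken. Genes were named by a rule: the 12 widest separations in each direction of at least 2-fold, with their values on every array, the others of at least 2-fold, genes called by limma, list members 2-fold apart or called, and close relatives. The comparison, the rule, the relatives and the 13 gene lists were chosen with earlier results of these data known. Of 167 loci in the lists, 37 could be named and 33 were tested. The sources used here do not say whether arrays of an accession came from separate plantings. Those arrays also differ in the line they carry, so p-values measure the spread between these arrays, after low values were raised to the floor. A group under the floor on all its arrays, as for AT1G78860, AT4G02540 and ChiC, adds no spread to the fit. The SE and p of such a gene can therefore be too small. No 2 arrays held identical values. Other scalings, floors, filters and limma settings, and the omission of each array, were tried. Python 3.11.15 with numpy 2.4.6 and pandas 2.3.3 was used for the other steps.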

Additional observations from a re-analysis of the deposited data

How the results depend on the processing

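With 2 arrays against 3, calls depended on how the spread was estimated. No log2 difference of the 31 named genes with a gap of 2-fold changed sign under any of the alternatives that could be computed for it. These genes were chosen for that gap, so the alternatives could hardly reverse their sign, and this is no measure of stability. limma called 38 probe sets in the analysis reported, and 43 with values as deposited, 39 with quantile normalization, 31 and 44 with the floor doubled or halved, 26 when a probe set had to exceed the floor everywhere and 38 with a trend and robust estimation. A term for arrays with a named line left 24 calls, 23 of them among the 38 and 9 of the 18 named genes called. Without a filter it called 7, 3 of them among the 38 and none of the 18 named genes, and probe sets that never exceeded the floor then entered the estimate of spread. Leaving out 1 array gave 3 to 38 calls; with a single WS array left, that array is assumed to vary like the Col-0 arrays. The count with a gap of 2-fold was 65, or 54 to 88 over the other scalings and floors and 75 to 132 with 1 array left out, where fewer pairs have to be apart. The medians of the salicylate defence list with 1 array left out ranged from -2.88 to -0.691, and it had 2 tested genes of opposite sign. They ranged from -1.53 to -1 for the cold, drought and ABA list and from -0.292 to 0.207 for complex I. Those of the root markers ranged from 0.302 to 0.947. No paired analysis was possible because the labels give no replicate number shared by the accessions. The number of arrays limits the precision.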
